A study of Mus musculus with 8 samples.

Results

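The genes described here are 7 non-classical major histocompatibility complex (MHC) class I genes of the mouse, H2-Q4, H2-Q6, H2-Q7, H2-T10, H2-T22, H2-T23 and H2-M3. They were chosen by name from the H2-Q, H2-T and H2-M clusters, and they are 7 of the 24421 gene names in the files. Their expression was measured in MCa-P1362, a line derived from a spontaneous mammary tumour of a female Balb/c mouse, by sequencing total RNA as read pairs. Cells of the line were sorted by flow cytometry on EpCAM, an epithelial adhesion protein. The 4 groups, with 2 libraries each, were monoculture EpCAM+, monoculture EpCAM-, coculture EpCAM+ and coculture EpCAM-. No group carried a named allele or agent, and all cells were of the 1 line, grown in the same medium. Per the protocol, sorted cells were frozen directly or were first grown and passaged once, and the labels do not say which of these coculture and monoculture stand for. Nor do they state if both libraries of a group are from separate cultures, so p-values reflect the spread of these libraries alone, which may be technical.

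Class I molecules consist of a heavy chain, encoded by an H2 gene, and beta-2-microglobulin. The classical heavy chains H2-K and H2-D present peptides to CD8 T cells and vary widely between strains, whereas the non-classical ones vary little and have narrower ligands. H2-T23 encodes Qa-1, which presents leader peptides of other class I chains to the receptor CD94/NKG2A of natural killer cells. H2-M3 presents peptides that begin with formyl-methionine. H2-Q6 and H2-Q7 belong to the Qa-2 family, H2-Q4 encodes the Qb-1 antigen, and T22 and T10 are ligands of some gamma delta T cell receptors. BALB/c mice carry another H2 haplotype than C57BL/6, the strain of the reference genome, so reads of these genes were placed on the sequences of another strain in all 8 libraries.

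The promoters of class I genes are known to carry a binding site of NF-kappaB, an interferon-stimulated response element and, nearer the gene, an element read by the class I transactivator Nlrc5. RefSeq promoters (GRCm38.p6) were given for 6 of the 7 genes, and the 250 bases before the start were searched on both strands. Shown are a stretch from each of the Q, M and T clusters (H2-Q4, H2-M3 and H2-T22) and 30 bases of H2-T23, since all 4 hold an interferon motif. The 30 bases of H2-T23 lie before its RefSeq start but within the gene as GENCODE gives it below. Capitals mark, from left to right, a match to the NF-kappaB consensus, one to an interferon motif (GAANNGAAA, or GAAA and GAAA set 2 bases apart, read here on the reverse strand) and the run TGATGAC. Overlapping matches are joined.
H2-Q4 (chr17:35379367-35379616, + strand): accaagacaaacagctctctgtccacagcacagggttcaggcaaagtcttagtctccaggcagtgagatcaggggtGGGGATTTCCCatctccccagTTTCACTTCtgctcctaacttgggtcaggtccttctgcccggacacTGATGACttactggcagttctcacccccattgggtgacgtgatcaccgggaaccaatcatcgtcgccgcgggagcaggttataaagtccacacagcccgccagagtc
H2-M3 (chr17:37269984-37270219, + strand): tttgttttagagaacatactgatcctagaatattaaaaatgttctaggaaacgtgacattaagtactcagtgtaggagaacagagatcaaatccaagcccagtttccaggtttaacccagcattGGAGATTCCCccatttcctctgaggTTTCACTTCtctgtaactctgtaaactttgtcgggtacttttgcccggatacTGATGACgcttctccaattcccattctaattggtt
H2-T22 (chr17:36042748-36042992, - strand): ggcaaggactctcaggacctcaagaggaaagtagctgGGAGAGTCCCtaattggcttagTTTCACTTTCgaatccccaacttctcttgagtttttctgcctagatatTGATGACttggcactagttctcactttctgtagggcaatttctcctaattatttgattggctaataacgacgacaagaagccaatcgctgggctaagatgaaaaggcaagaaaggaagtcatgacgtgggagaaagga
H2-T23 (chr17:36032806-36032835, - strand): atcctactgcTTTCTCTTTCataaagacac

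One of the interferon motifs was found in 6 of the 6 promoters, against 8.82% of all 32851 RefSeq promoter windows. GAANNGAAA was in 4 of the 6 and 6.31% of all windows, and the longer form in 2 of the 6 and 2.98%. The form GAANNGAAA was chosen for its spacing in class I genes, so its matches here were partly fixed in advance. The stretches of H2-Q4, H2-Q6 and H2-Q7 are also much alike, so the 6 promoters are not independent of each other. CCAAT, a common promoter motif, was in 6 of the 6 and 33.8% of all windows. The NF-kappaB consensus was in 5 of 6, against 7.25%. The run TGATGAC, noted only after the windows had been read, was also in 5 of 6, against 2.69%. All 3 were together in 14 windows (0.0426%) of 13 genes. Of these genes 7 were H2 genes, namely H2-Q4, H2-Q6, H2-Q7, H2-T22, H2-M3, H2-D1 and H2-M2. In the 5 promoters with all 3, the order was the same. Counted between first bases, the interferon motif lay 20 to 25 bases after the NF-kappaB match, and TGATGAC 46 to 52 bases further on. Relative to the RefSeq start, the 3 began at -174, -153 and -107 in H2-Q4 and at -126, -101 and -49 in H2-M3. H2-T23 held only the interferon motif of the 3, at -124. GENCODE starts this gene further upstream, at 36032855 against 36032701 in RefSeq. Less of the sequence before the GENCODE start was thus searched, and the other 2 may lie outside the window. A match is a run of letters in the reference strain and says nothing of binding in these cells.

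**Figure D1:**
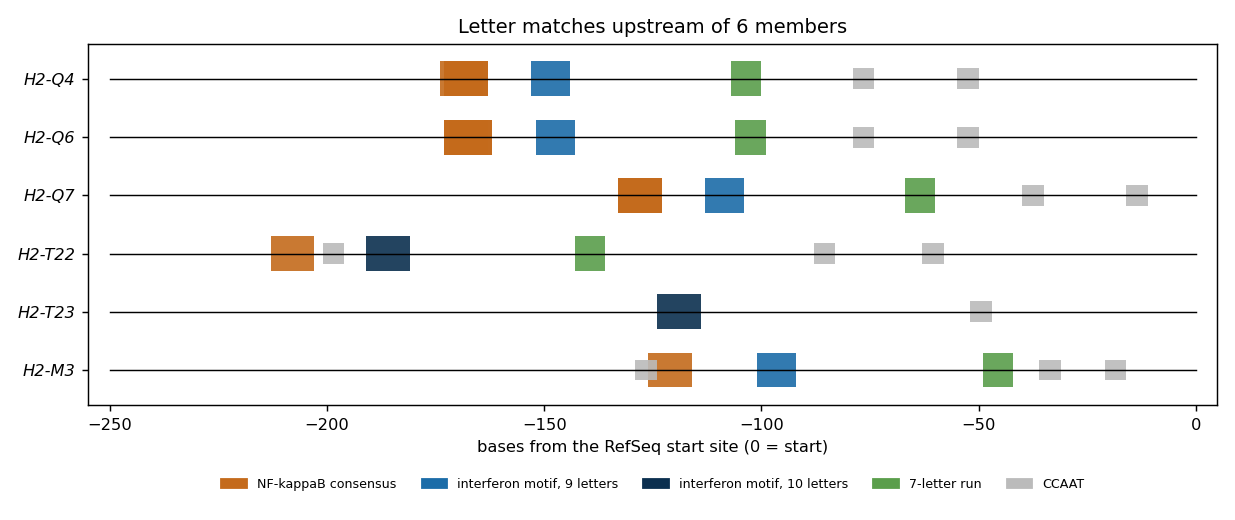
Position of each motif match in the 6 promoters given, by distance in bases from the RefSeq start (x axis), with a row per gene. The 7-letter run is TGATGAC. In 5 rows the NF-kappaB consensus, the interferon motif and TGATGAC follow each other at near-equal spacing. The H2-T23 row, whose GENCODE start lies further upstream than the RefSeq start used, holds the interferon motif alone of the 3.

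The genes lie on chromosome 17 in 3 clusters (GRCm38, GENCODE M21). H2-Q4 (35379617 to 35385290), H2-Q6 (35424850 to 35430055) and H2-Q7 (35439155 to 35443773) are on the plus strand. H2-T23 (36029773 to 36032855), H2-T22 (36037128 to 36042747) and H2-T10 (36115876 to 36121465) are on the minus strand, and H2-M3 (37270220 to 37274484) is on the plus strand. H2-T10 is annotated as a polymorphic pseudogene and the others as protein coding. Exact runs of 50 bases that also occur in transcripts of other genes made up 34.5% of the runs of H2-T22, 32.9% of H2-T10, 32.0% of H2-Q6, 26.4% of H2-Q7, 21.8% of H2-Q4, 13.6% of H2-T23 and 0.576% of H2-M3. At 150 bases, the read length, the shares were at most 5.99%, and they were 0 for H2-Q4 and H2-M3. The files also name H2-Q8, H2-Q9 and H2-T9, which have no transcripts under these names in GENCODE M21. Runs shared with them could not be counted, so the shares may be too low. How reads that fit several genes were counted is not given in the sources used here, so the values of H2-Q6, H2-Q7, H2-T10 and H2-T22 are uncertain. H2-T22 shares 29.4% of its exon bases with the antisense gene A930015D03Rik, H2-T10 27.1% with BC023719 and H2-Q4 19.1% with Gm11131. Whether reads were counted by strand is not given, so the genes of such a pair cannot be told apart there.

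The sort label was checked on Epcam, whose protein the sort used, and on Krt8, Krt18, Krt19 and Cdh1. Over these 5, EpCAM- libraries held a median of 0.167% to 0.183% of the EpCAM+ level in monoculture and 0.269% to 0.310% in coculture. Epcam itself was 131 ± 2.84 FPKM (fragments per transcript length and library depth; mean ± SD, n = 2 here and below) in monoculture EpCAM+ and 0.243 ± 0.0244 in monoculture EpCAM-, and 201 ± 1.53 in coculture EpCAM+ and 0.350 ± 0.0128 in coculture EpCAM-. FPKM summed to 387489 to 414612 per library, and 10634 to 11119 genes reached 1 FPKM. Read depth is unknown, because the files give FPKM only, and the relative depth estimated from low values spanned 0.912 to 1.163. All 10 leukocyte markers were below 1 FPKM in every library. Cd3e, Adgre1 and Tyrobp were listed at 0 throughout. Ptprc was at most 0.00552, and the 10 markers summed to 0.493 and 0.592 FPKM in monoculture EpCAM+, 0.253 and 0.256 in monoculture EpCAM-, 0.585 and 0.810 in coculture EpCAM+, and 0.193 and 0.259 in coculture EpCAM-. Of 11 MHC class II genes, 6 were listed at 0 in all libraries and only H2-DMa exceeded 1 FPKM. Over 17 mesenchymal marker genes, the EpCAM+ libraries held a median of 0.127% to 0.139% of the EpCAM- level in monoculture, and of 1.71% to 1.74% in coculture. The genes differed, with Postn highest. The share ran from 0.0762% to 23.2% in monoculture EpCAM+ replicate 1 and from 1.36% to 13.6% in coculture EpCAM+ replicate 1. At the median share in coculture, coculture EpCAM- cells would give at most 0.235 FPKM of H2-T23, 0.140 of H2-M3 and 0.0764 of H2-Q4 in coculture EpCAM+.

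The 7 genes together summed to 43.2 ± 0.281 FPKM in monoculture EpCAM+ and 10.12 ± 0.751 in monoculture EpCAM-, and to 85.5 ± 2.53 in coculture EpCAM+ and 29.6 ± 2.44 in coculture EpCAM-. H2-Q4, H2-T23 and H2-M3 made up 75.9% to 94.5% of the sum in each library. H2-Q4 alone was 47.7% and 50.4% of it in monoculture EpCAM+ and 4.78% and 5.01% in monoculture EpCAM-. H2-M3 was 14.4% and 13.8% of it in monoculture EpCAM+ and 53.1% and 47.6% in monoculture EpCAM-. In this bulk measure, fewer cells that express a gene and less of its RNA per cell cannot be told apart.

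**Figure D2:**
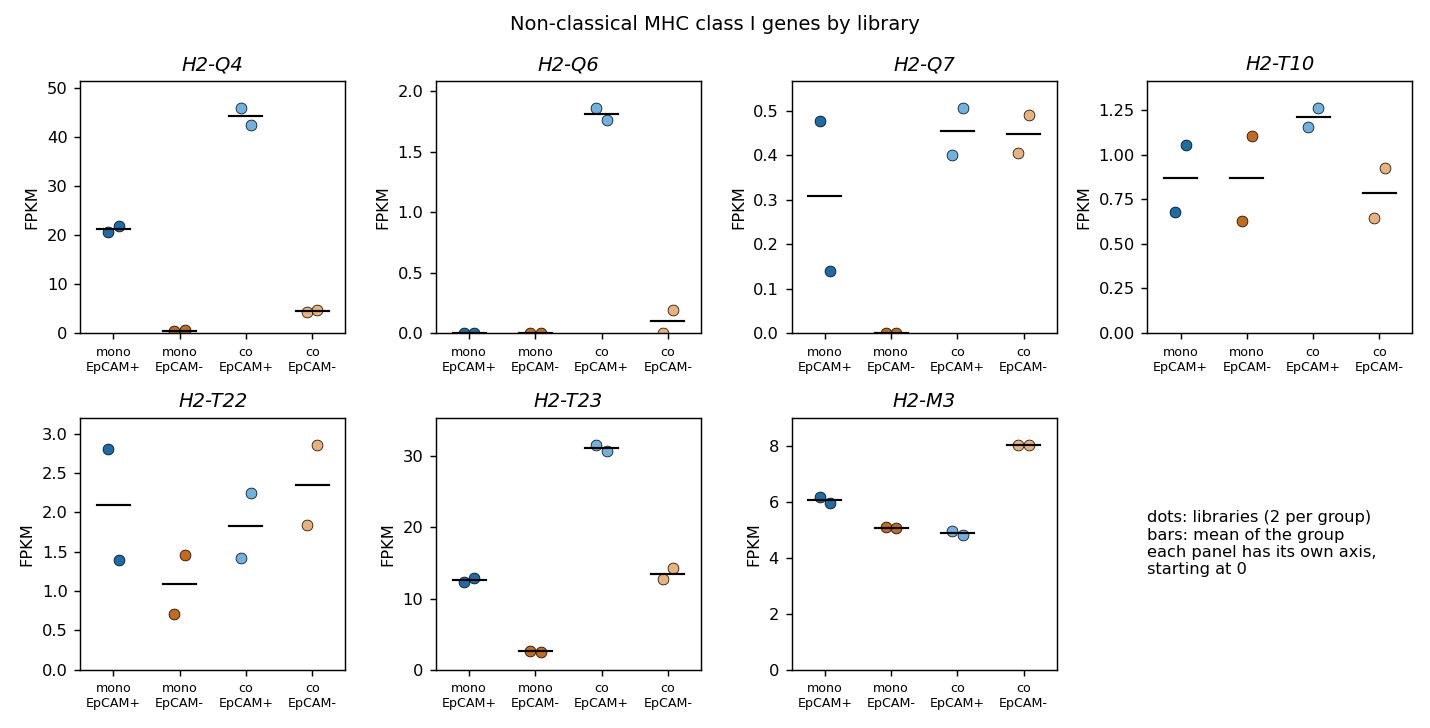
Level of each of the 7 genes in FPKM (y axis, linear from 0, scaled per panel) in the 4 groups, with a panel per gene, points for libraries and bars for group means. H2-Q4 and H2-T23 are highest in coculture EpCAM+, at 42.5 to 45.9 and 30.7 to 31.6 FPKM, H2-M3 is highest in coculture EpCAM-, and H2-Q6, H2-Q7, H2-T10 and H2-T22 stay below 3 FPKM.

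H2-Q4 (ENSMUSG00000035929), the Qb-1 gene, was the most expressed of the 7 in EpCAM+ cells. It read 20.5 and 21.9 FPKM in monoculture EpCAM+ and 0.459 and 0.534 in monoculture EpCAM-. In coculture it read 45.9 and 42.5 in EpCAM+ and 4.19 and 4.60 in EpCAM-. No 2 of the 4 groups overlapped, and their order was coculture EpCAM+, monoculture EpCAM+, coculture EpCAM-, monoculture EpCAM-. The ratio of EpCAM+ to EpCAM- means was 42.7 in monoculture and 10.0 in coculture. At the share of EpCAM+ levels found in them from 5 epithelial markers, the monoculture EpCAM- libraries would hold 0.0354 and 0.0387 FPKM of H2-Q4.

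H2-T23 (ENSMUSG00000067212), the Qa-1 gene, read 12.3 and 12.9 FPKM in monoculture EpCAM+ and 2.70 and 2.48 in monoculture EpCAM-. In coculture it read 31.6 and 30.7 in EpCAM+ and 12.8 and 14.2 in EpCAM-. Coculture EpCAM+ stood above all others and monoculture EpCAM- below all others, while coculture EpCAM- overlapped monoculture EpCAM+. The ratio of EpCAM+ to EpCAM- means was 4.88 in monoculture and 2.31 in coculture.

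H2-M3 (ENSMUSG00000016206), which presents formylated peptides, read 6.19 and 5.97 FPKM in monoculture EpCAM+ and 5.09 and 5.07 in monoculture EpCAM-. In coculture it read 4.97 and 4.83 in EpCAM+ and 8.04 and 8.04 in EpCAM-. Its group order was coculture EpCAM-, monoculture EpCAM+, monoculture EpCAM-, coculture EpCAM+, with no overlap. The span was narrow, and coculture EpCAM+, the highest group of H2-Q4 and H2-T23, was the lowest of H2-M3.

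The Qa-2 genes were near the lower limit of the files. H2-Q6 (ENSMUSG00000073409) was listed at 0 in the 4 monoculture libraries, and read 1.86 and 1.76 FPKM in coculture EpCAM+ and 0 and 0.193 in coculture EpCAM-. H2-Q7 (ENSMUSG00000060550) read 0.478 and 0.141 in monoculture EpCAM+ and 0 and 0 in monoculture EpCAM-, against 0.401 and 0.506 in coculture EpCAM+ and 0.405 and 0.490 in coculture EpCAM-. H2-Q7 did not reach the limit of 1 FPKM in 2 libraries and was not tested. H2-Q6 reached it only through coculture EpCAM+, so the comparisons with that group had to differ.

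The gamma delta T cell ligand genes were low and varied between libraries of a group. H2-T10 (ENSMUSG00000079491) read 0.681 and 1.05 FPKM in monoculture EpCAM+ and 0.627 and 1.11 in monoculture EpCAM-, and 1.16 and 1.26 in coculture EpCAM+ and 0.645 and 0.928 in coculture EpCAM-. H2-T22 (ENSMUSG00000056116) read 2.80 and 1.39 in monoculture EpCAM+ and 0.712 and 1.46 in monoculture EpCAM-, and 1.42 and 2.25 in coculture EpCAM+ and 1.83 and 2.86 in coculture EpCAM-. For H2-T10, coculture EpCAM+ lay above the other 3 groups, which overlapped each other. For H2-T22, monoculture EpCAM- lay below coculture EpCAM-, and every other pair of groups overlapped. A930015D03Rik, the antisense neighbour of H2-T22, read 4.20 and 2.93 in monoculture EpCAM+ and 1.91 and 1.79 in monoculture EpCAM-, and 3.97 and 4.58 in coculture EpCAM+ and 2.68 and 2.92 in coculture EpCAM-. Its part in the values of H2-T22 was not tested.

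EpCAM+ cells were set against EpCAM- cells, first in monoculture, to ask how the epithelial fraction differs from the rest of the line. H2-Q4 was higher in EpCAM+, by 3.89 as a log2 fold change of FPKM + 1 (SE 0.060, adjusted p = 2.23e-10, limma). H2-T23 was higher by 1.93 (SE 0.057, adjusted p = 1.04e-08, limma). H2-M3 was called higher at 0.22 (SE 0.040, adjusted p = 9.88e-04, limma), beside a median of 0.23 over all genes. Its direction turned under the median of ratios (-0.00107, adjusted p = 0.981, limma), and its call was lost under quantile normalization (0.03, adjusted p = 0.468). H2-T22 was at 0.55 (adjusted p = 0.0897) and H2-T10 at 0.01 (adjusted p = 0.974). Without monoculture EpCAM+ replicate 2, H2-T22 was at 0.89 and passed (adjusted p = 0.0219, limma), and its lowest value over the alternatives was 0.22. The sign of H2-T10 turned under all 3 other scalings. Of the 6 genes tested, 3 were called higher and 0 lower, where 87.9% of all 12012 tested genes were called, 55.4% higher and 32.4% lower. A call alone thus says little here, and size more: 3.28% of tested genes had a larger absolute change than H2-Q4, 12.1% than H2-T23 and 79.8% than H2-M3. Of all calls 63.1% were higher, against 50.3% after median-of-ratios scaling and 55.2% after quantile normalization, which shifted the all-gene median by -0.22 and -0.15.

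Other genes of the class I pathway were counted from fixed lists. Over all tested genes, 55.4% were called higher and 32.4% lower in this comparison, so the counts alone say little. Of 11 tested class I and class I-like genes outside the 7, 6 were higher and 3 lower in monoculture EpCAM+ (median 0.67), near those shares. The classical H2-D1 was 61.4 FPKM in EpCAM+ and 11.97 in EpCAM- (2.27, adjusted p = 1.10e-08, limma), and the antigen-presenting Cd1d1 was higher by 1.77. The neonatal Fc receptor gene Fcgrt (-5.02) and Mr1 (-2.24), which presents vitamin B metabolites, were lower. Of 15 assembly and peptide loading genes, 10 were higher and 4 lower (median 0.75). The largest changes were those of the immunoproteasome subunit Psmb8 (3.12), tapasin (Tapbp, 2.53) and the proteasome activators Psme2 (1.76) and Psme1 (1.69). B2m, the shared light chain, ran the other way, at 285 FPKM in EpCAM+ and 337 in EpCAM- (-0.24). Of 12 tested transcription factor genes, 10 were higher and 1 lower (median 0.61), led by Irf1 (2.80), Nfkb1 (1.17), Rela (1.03) and Nfyc (0.93). Nlrc5 was at most 0.246 FPKM in any library and was not tested. Of 21 interferon signalling genes, 15 were higher and 5 lower (median 0.96), among them Isg15 (4.40), Bst2 (3.48), Usp18 (2.93) and Ifi44 (2.75).

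In coculture, H2-Q4 and H2-T23 were again higher in EpCAM+ cells and H2-M3 was lower. H2-Q4 was higher in EpCAM+ by 3.07 (SE 0.060, adjusted p = 9.30e-10, limma) and H2-T23 by 1.15 (SE 0.057, adjusted p = 2.86e-07, limma). H2-M3 was lower in EpCAM+, by a ratio of FPKM means of 0.609. In log2 of FPKM + 1, H2-M3 was at -0.62 (SE 0.040, adjusted p = 1.51e-06, limma). It stayed lower, between -0.96 and -0.60, in each of the 22 alternatives run. H2-Q6 counts as higher, which was likewise fixed by its passing the limit through coculture EpCAM+ alone. H2-T10 (0.31, adjusted p = 0.0735) and H2-T22 (-0.24, adjusted p = 0.431) did not pass. H2-T10 turned to -0.04 under quantile normalization. It passed with the replicate block (adjusted p = 0.00812, limma), in a fit of only the libraries compared (adjusted p = 0.0201) and without monoculture EpCAM- replicate 1 or 2 (adjusted p = 0.0419 each). Of the 6 tested, 3 were called higher and 1 lower, where 87.2% of all tested genes were called, 59.2% higher and 28.0% lower. A larger absolute change than that of H2-Q4 was seen in 5.50% of tested genes, than that of H2-T23 in 22.2% and than that of H2-M3 in 43.4%. The median of all genes was 0.26, and 67.9% of calls were higher, against 49.9% with median-of-ratios scaling and 50.8% with quantiles, which shifted that median by -0.26 and -0.25.

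In coculture, 6 of the 11 other class I genes were higher in EpCAM+ and 4 lower (median 0.54). The shares over all tested genes, to be read beside these counts, were 59.2% higher and 28.0% lower. Cd1d1 was higher by 1.83, while Fcgrt (-3.41), H2-T24 (-1.86) and the protein C receptor gene Procr (-1.77) were lower. H2-T24, a neighbour in the T cluster, was 0.701 FPKM in EpCAM+ and 5.20 in EpCAM-. It reached 1 FPKM only in coculture EpCAM-, so its being lower here was fixed by the limit for testing. Cd1d2, counted as higher, reached 1 FPKM only in coculture EpCAM+, so its direction was fixed likewise. Of the assembly genes 10 of 15 were again higher and 4 lower (median 1.38), with Psmb8 (3.40), Tapbp (2.18), the peptide transporter Tap2 (2.14) and Psme2 (2.03) furthest. Of the transcription factor genes 10 of 12 were higher and 1 lower, led by Irf1 (2.79), Rela (1.17), Nfkb1 (1.16) and Nfyc (0.98). The interferon genes went both ways, 9 higher and 8 lower of 21 (median -0.01), with Isg15 (4.13), Gbp2 (2.24) and Rsad2 (1.66) higher and the receptor chain Ifnar2 (-1.22) lower. Of 3 tested ligands of the activating receptor NKG2D, Raet1e (-2.05) and Raet1b (-1.83) were lower in EpCAM+ and Ulbp1 (0.92) was higher.

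**Figure D3:**
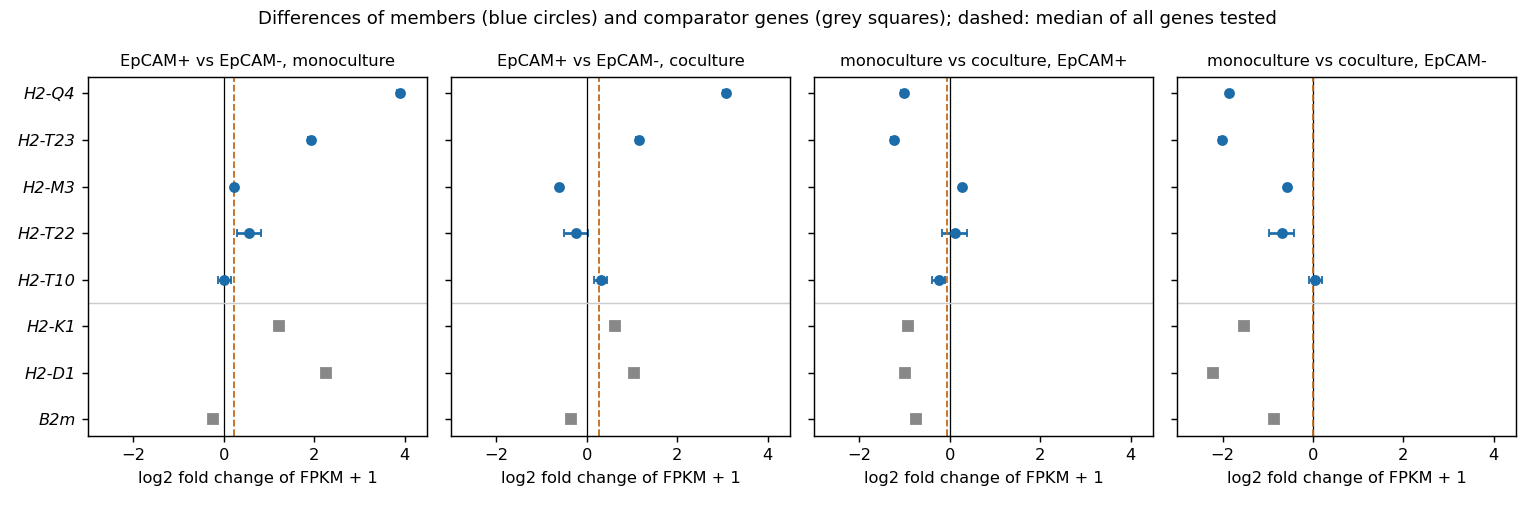
Log2 fold change of FPKM + 1 (x axis, bars are SE) of H2-Q4, H2-T23, H2-M3, H2-T22 and H2-T10 (circles) and of H2-K1, H2-D1 and B2m (squares) in the 4 comparisons, EpCAM+ over EpCAM- in each culture and monoculture over coculture in each fraction. H2-Q4 (3.89 and 3.07) and H2-T23 (1.93 and 1.15) lie above 0 in both EpCAM comparisons and below 0 in both culture comparisons. H2-M3 is at -0.62 in coculture and at 0.22 in monoculture, where its sign turns under the median of ratios and its call is lost under quantile normalization.

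Monoculture was then set against coculture, first in EpCAM+ cells, to ask whether the culture conditions differ in the epithelial fraction. Ratios here are of FPKM means without a pseudocount, and the values in brackets are log2 fold changes of FPKM + 1, so the 2 differ. H2-T23 was lower in monoculture, by a ratio of 0.405 (-1.24, SE 0.057, adjusted p = 2.39e-06, limma). H2-Q4 was lower by a ratio of 0.480 (-1.02, SE 0.060, adjusted p = 8.26e-06, limma). H2-M3 was higher in monoculture, by a ratio of 1.24 (0.26, SE 0.040, adjusted p = 0.00115, limma), and it kept this direction in the 22 alternatives. H2-Q6, at 0 in monoculture, counts as lower here, which was fixed by its passing the limit through coculture EpCAM+ alone. H2-T10 (-0.25, adjusted p = 0.185) and H2-T22 (0.10, adjusted p = 0.776) did not pass. Thus 1 of the 6 tested was called higher and 3 lower, where 51.4% of all tested genes were called, 16.4% higher and 34.9% lower. At a change of at least 2-fold, a limit added after the data were seen, 1.94% of all genes were called, and H2-Q4 and H2-T23 were among them. H2-Q6 was too, which the limit for testing fixed. H2-Q4 lay at the edge of 2-fold, between -1.08 and -0.968 over its 22 alternatives, and so fell short of it in some. Only 1.14% of tested genes had a larger absolute change than H2-T23 and 1.88% than H2-Q4. Of all calls 32.0% were higher, against 45.7% with median-of-ratios scaling and 54.7% with quantiles.

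Over all tested genes, 34.9% were called lower in monoculture EpCAM+ and 16.4% higher. Of the 11 other class I genes, 9 were lower in monoculture EpCAM+ and 0 higher (median -0.52). The 9 included H2-T9 (-1.02), H2-D1 (-0.99), H2-K1 (-0.93) and H2-Q1 (-0.73). They also included Cd1d2, whose direction was fixed by its passing the limit through coculture EpCAM+ alone. Of the assembly genes 10 of 15 were lower and 4 higher (median -0.49), with Tap2 (-1.92), Psmb8 (-1.84), Psmb9 (-1.44) and Tap1 (-1.18) furthest. The 4 that were higher, Calr (0.16), Pdia3 (0.12), Canx (0.10) and Sec61a1 (0.09), are general folding and translocation genes of the endoplasmic reticulum and were named after their values were seen. Of the interferon genes 17 of 21 were lower and 0 higher (median -1.39), with Irf7 (-2.55), Isg15 (-2.33), Ifi44 (-1.91) and Usp18 (-1.70) furthest. Of the 12 transcription factor genes 2 were higher and 3 lower, and Irf1 changed by only -0.20.

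In EpCAM- cells the difference between cultures was larger for H2-Q4 and H2-T23 as a ratio and on the log2 scale. In FPKM it was larger in EpCAM+ cells. There H2-Q4 averaged 21.2 in monoculture and 44.2 in coculture, against 0.496 and 4.40 in EpCAM- cells. H2-T23 averaged 12.6 and 31.2, against 2.59 and 13.5. In EpCAM- cells, H2-T23 was lower in monoculture by a ratio of FPKM means of 0.192. In log2 of FPKM + 1 it was at -2.01 (SE 0.057, adjusted p = 7.48e-08, limma). H2-Q4 was lower by a ratio of 0.113, and in log2 of FPKM + 1 by less than H2-T23 (-1.85, SE 0.060, adjusted p = 1.37e-07, limma). At a pseudocount of 0.1, H2-Q4 was at -2.92 and H2-T23 at -2.34, so their order depends on the pseudocount. H2-M3, higher in monoculture in EpCAM+ cells, was lower here by a ratio of 0.632 (-0.57, SE 0.040, adjusted p = 8.94e-06, limma). H2-T22 read -0.69 and missed the threshold (adjusted p = 0.0595, limma), with adjusted p between 0.0374 and 0.309 over its alternatives. It passed under quantile normalization (-0.718, adjusted p = 0.046) and without monoculture EpCAM+ replicate 1 or 2 (adjusted p = 0.0374) or monoculture EpCAM- replicate 2 (-0.950, adjusted p = 0.044). H2-T10 (0.06, adjusted p = 0.763) and H2-Q6 (-0.13, adjusted p = 0.212) did not pass. The outcome of H2-Q6 was not stable: it was at -0.26 without coculture EpCAM- replicate 1, and between -0.78 and 0 over its alternatives. Of the 6 tested, 0 were called higher and 3 lower, where 62.7% of all tested genes were called, 32.4% higher and 30.3% lower. At 2-fold or more, 4.52% of all genes were called, H2-Q4 and H2-T23 among them, and 1.01% had a larger absolute change than H2-T23, 1.29% than H2-Q4 and 12.9% than H2-M3.

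Over all tested genes, 30.3% were called lower in monoculture EpCAM- and 32.4% higher. Of the 11 other class I genes, 8 were lower in monoculture EpCAM- and 2 higher (median -0.61). H2-D1 (-2.22) and H2-K1 (-1.52) were lower and Fcgrt (1.38) higher. H2-T24 (-2.37) counts as lower, which was fixed by its passing the limit through coculture EpCAM- alone. H2-D1 was 11.97 FPKM in monoculture EpCAM- and 59.4 in coculture EpCAM-. Of the assembly genes 10 of 15 were lower and 3 higher (median -0.21), with Psmb8 (-1.55), Tap1 (-1.15), Tapbp (-1.03) and B2m (-0.85) furthest. Of the interferon genes 15 of 21 were lower and 3 higher (median -1.57), among them Usp18 (-4.996), Bst2 (-4.89), Irf7 (-4.75) and Ifi44 (-4.71). Irf7, an interferon-induced transcription factor, was 0.253 FPKM in monoculture EpCAM- and 32.6 in coculture EpCAM-. Of the 12 transcription factor genes, 3 were higher and 1 lower.

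**Figure D4:**
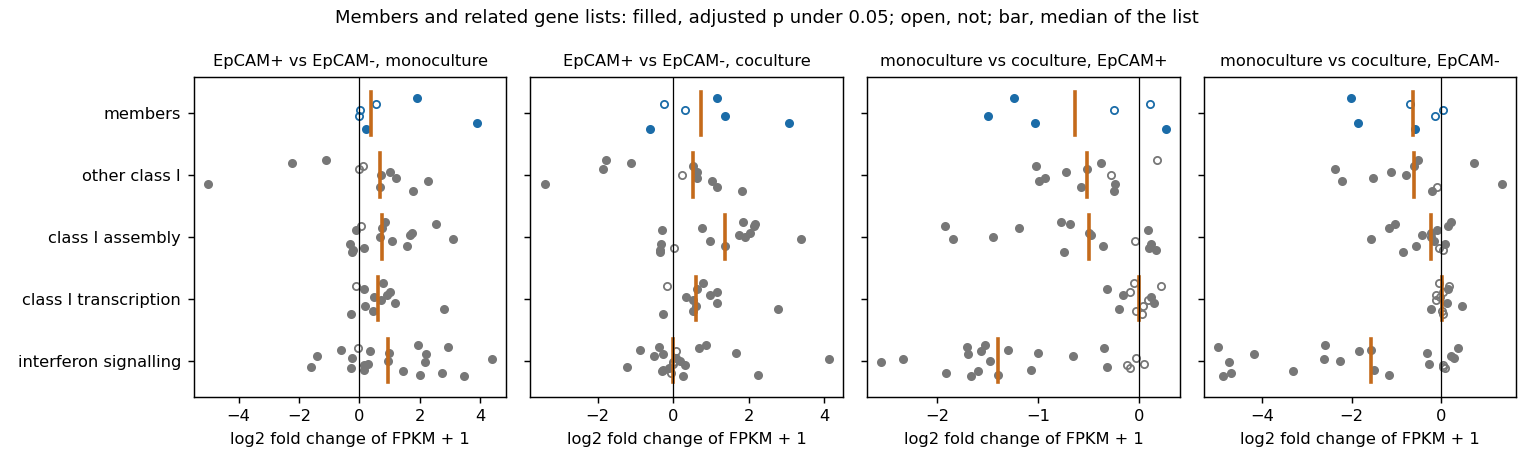
Log2 fold change of FPKM + 1 (x axis) of the tested genes of the 7 described here (members, top row) and of each list, filled where the adjusted p was under 0.05 and open otherwise, with list medians as bars, in the 4 comparisons. In the culture comparisons the interferon list has medians of -1.39 and -1.57, and the transcription list lies near 0.

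The difference between the fractions was set against the culture by the interaction, the change of monoculture over coculture in EpCAM+ less that in EpCAM-. It was 0.83 for H2-M3 (SE 0.056, adjusted p = 8.83e-06, limma), 0.83 for H2-Q4 (SE 0.085, adjusted p = 8.30e-05, limma) and 0.78 for H2-T23 (SE 0.081, adjusted p = 9.04e-05, limma). For H2-Q4 and H2-T23 it is, on the log2 scale, a smaller deficit of monoculture in EpCAM+ than in EpCAM-. For H2-M3 the 2 changes had opposite signs, 0.26 in EpCAM+ and -0.57 in EpCAM-. H2-T22 (0.79, adjusted p = 0.107) and H2-T10 (-0.31, adjusted p = 0.220) did not pass. H2-T22 lay between 0.46 and 1.23 over its alternatives and passed without monoculture EpCAM+ replicate 2 (1.13, adjusted p = 0.0337), so 1 library decides its call. The value of H2-Q6, -1.36, was fixed by its passing the limit through coculture EpCAM+ alone. With it, 3 of the 6 tested were called higher and 1 lower, where 65.2% of all tested genes had a called interaction, 26.0% higher and 39.2% lower. A larger absolute interaction than that of H2-M3 was seen in 11.7% of tested genes. At 2-fold or more, 8.09% of all genes were called, and none of H2-Q4, H2-T23 and H2-M3 was among them. Quantile normalization shifted the all-gene median by 0.11, and 53.4% of calls were then higher, against 39.9% as deposited. These interactions depend on the pseudocount. At 0.1 FPKM they were 1.86 for H2-Q4, 1.04 for H2-T23 and 0.96 for H2-M3, so that H2-Q4 and H2-T23 then exceeded 2-fold.

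Levels were also set against other class I genes within a library. The ratio of H2-T23 to the classical H2-D1 was 0.206 ± 0.00409 in monoculture EpCAM+ and 0.217 ± 0.00749 in monoculture EpCAM-, and 0.254 ± 0.0192 in coculture EpCAM+ and 0.229 ± 0.0330 in coculture EpCAM-. The ratio of H2-Q4 to H2-D1 split by fraction, at 0.345 ± 0.0104 in monoculture EpCAM+ and 0.0419 ± 0.00841 in monoculture EpCAM-, and at 0.361 ± 0.0393 in coculture EpCAM+ and 0.0744 ± 0.00996 in coculture EpCAM-. The ratio of H2-M3 to H2-D1 was lower in EpCAM+, at 0.0990 ± 0.00406 in monoculture EpCAM+ and 0.427 ± 0.0389 in monoculture EpCAM-, and at 0.0400 ± 0.00293 in coculture EpCAM+ and 0.136 ± 0.00924 in coculture EpCAM-. Other denominators gave other patterns. The ratio of H2-T23 to H2-K1 averaged 0.5002 in monoculture EpCAM+ and 0.250 in monoculture EpCAM-, and 0.632 in coculture EpCAM+ and 0.428 in coculture EpCAM-. That of H2-T23 to B2m averaged 0.0444 in monoculture EpCAM+ and 0.00768 in monoculture EpCAM-, and 0.0654 in coculture EpCAM+ and 0.0221 in coculture EpCAM-. The ratio of H2-M3 to B2m was higher in EpCAM+ of monoculture, at 0.0214 against 0.0151 in EpCAM-, and lower in EpCAM+ of coculture, at 0.0103 against 0.0132 in EpCAM-.

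Profiles were compared over the 8 libraries by the root-mean-square difference between log2(FPKM + 1) values, each gene centred on its own mean. The gene nearest to H2-T23 was Ifih1 (0.0977), which encodes the RNA sensor MDA5, followed by H2-D1 (0.153) and by Ddx58 (0.173), which encodes the RNA sensor RIG-I. Ifih1 averaged 6.47 FPKM in monoculture EpCAM+ and 0.888 in monoculture EpCAM-, and 14.1 in coculture EpCAM+ and 6.94 in coculture EpCAM-. No other gene in the ranking lay within 0.2 of H2-T23. Nearest to H2-Q4 were Tmem176a (0.153), Psmb8 (0.335) and Tmem176b (0.346). Nearest to H2-M3 were Smyd5 (0.0391), Ankrd50 (0.0515) and Uba6 (0.0572), but 400 genes lay within 0.2 of its narrow profile. H2-Q6 was nearest to S100a14 (0.187), Ifi44l (0.192) and Muc1 (0.229). It passed the limit for testing only through coculture EpCAM+, so its nearness to genes highest in that group is no result. H2-T22 was nearest to Rrp8 (0.182), Rpph1 (0.202) and Rnmtl1 (0.237). H2-T10 was nearest to Tbc1d32 (0.0772), Ttc33 (0.101) and Nek1 (0.102), with 1947 genes within 0.2.

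Since H2-T10 and H2-T22 share sequence with each other, they were also summed with H2-T9, a T-region gene by its name, an alternative added after the data were seen. No gene of the name H2-T9 is in GENCODE M21, so its position and its sequence shared with the others were not determined. H2-T9 gave most of the sum in every library, at 6.40 and 7.41 FPKM in monoculture EpCAM+ and 6.64 and 5.83 in monoculture EpCAM-, and 16.1 and 14.0 in coculture EpCAM+ and 10.0 and 9.96 in coculture EpCAM-. The sum was 9.88 and 9.85 in monoculture EpCAM+ and 7.98 and 8.39 in monoculture EpCAM-, and 18.7 and 17.5 in coculture EpCAM+ and 12.5 and 13.8 in coculture EpCAM-, with no overlap between groups. Summed, the 3 were lower in monoculture than in coculture, by -0.81 in EpCAM+ (adjusted p = 1.38e-05, limma) and by -0.62 in EpCAM- (adjusted p = 2.56e-05, limma). They were called higher in EpCAM+ than in EpCAM-, by 0.24 in monoculture (adjusted p = 0.00261, limma) and 0.43 in coculture (adjusted p = 8.54e-05, limma). The median of all tested genes was 0.23 in monoculture and 0.26 in coculture, and other scalings were not run on the sum. The monoculture value is thus hardly above that of all genes. H2-T9 alone was at 0.13 in monoculture (adjusted p = 0.199, limma) and at 0.54 in coculture. The Qa-2 genes H2-Q6 to H2-Q9, summed likewise, were 0.785 and 0.745 FPKM in monoculture EpCAM+ and listed at 0 in both monoculture EpCAM- libraries, and 2.33 and 2.31 in coculture EpCAM+ and 0.621 and 0.701 in coculture EpCAM-. Their sum reached 1 FPKM only in coculture EpCAM+, so a difference from that group was fixed by the limit for testing, and no test of it is given.

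**Figure D5:**
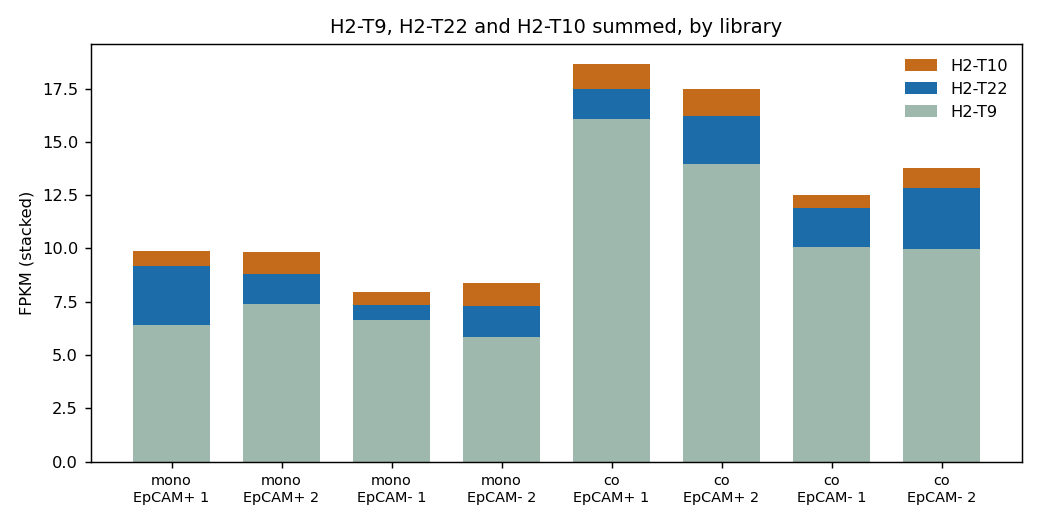
FPKM of H2-T10, H2-T22 and H2-T9 stacked in each of the 8 libraries (y axis from 0). The stacks reach 9.85 and 9.88 in monoculture EpCAM+, 7.98 and 8.39 in monoculture EpCAM-, 17.5 and 18.7 in coculture EpCAM+, and 12.5 and 13.8 in coculture EpCAM-, and H2-T9 is the largest layer throughout.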

How the data were processed

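The authors deposited FPKM per gene, with a file per library and no counts. Per the submitters' processing notes, FastQC, cutadapt, HISAT2, SAMtools, HTSeq and edgeR were used with the mouse build mm10. Their versions, the annotation, the tool that wrote the FPKM and the handling of shared or antisense reads are stated in none of the sources used here. Whole reads could not be recovered from the FPKM, so no counting interval is given.

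Values were taken as log2(FPKM + 1), and the 12012 genes with at least 1 FPKM in at least 2 of 8 libraries entered a limma fit (version 3.58.1, R 4.3.3) of 4 group means with 4 residual degrees of freedom and eBayes with trend. Two-sided p-values were adjusted over all of these genes (Benjamini-Hochberg), with 0.05 as the threshold for a call. Fold changes on this scale understate the change of low genes. The smallest p that 2 against 2 libraries allow in an exact test is 0.333. Same-numbered libraries did not deviate together (r between -0.073 and 0.041), and the fit has no replicate block.

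The rule names all 7 genes, comparators (H2-K1, H2-D1, B2m, Tap1, Nlrc5, Epcam), the 3 nearest profiles of each tested gene and, per list, the 4 called genes that changed most. The 7 genes, the lists and the tests were chosen with earlier results of these data known. Alternatives were pseudocounts, filters, scalings, eBayes priors, the replicate block, only the libraries compared, each library left out and the other fraction's share subtracted from EpCAM+. The same subtraction from EpCAM-, summed copies and the 2-fold limit were added after the data were seen. Python 3.11.15, pandas 2.3.3, NumPy 2.4.6 and matplotlib 3.10.9 were used.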

Additional observations from a re-analysis of the deposited data

Results flagged for a closer look

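The change between cultures differed between the fractions, by the interaction in limma on log2(FPKM + 1), for H2-M3, H2-Q4 and H2-T23. It was 0.83 for H2-M3, whose libraries were higher in monoculture than in coculture in EpCAM+ cells and lower in EpCAM- cells. It was 0.83 for H2-Q4 and 0.78 for H2-T23, which were lower in monoculture in both fractions and further so in EpCAM-. The value of H2-Q6, -1.36, is no result, since the gene passed the limit for testing only through coculture EpCAM+, where it is high. An interaction was called for 65.2% of all tested genes. Groups of 2 libraries were too small to search for a library that stands apart.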

How the results depend on the processing

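H2-Q4 and H2-T23 kept their direction and their call in all 5 comparisons under every alternative run, and H2-M3 in all but EpCAM+ against EpCAM- in monoculture. There it was -0.00107 by the median of ratios and 0.0314 by quantile normalization. H2-T10 there turned to -0.0275 at a constant sum, -0.114 with median-of-ratios scaling, -0.137 by quantiles, and between -0.181 and 0.192 with a library left out. In coculture, H2-T10 turned to -0.0416 by quantiles. Of monoculture against coculture, with a library left out, H2-T22 in EpCAM+ lay between -0.230 and 0.440 and H2-T10 in EpCAM- between -0.131 and 0.243. With a pseudocount of 0.1, genes called at 2-fold or more numbered 562 against 233 (monoculture against coculture, EpCAM+), 910 against 543 (the same, EpCAM-) and 1613 against 972 (interaction). Of the 7 genes, 1 passed that limit in the interaction (H2-Q6, fixed by the filter), against 3 at a pseudocount of 0.1, 2 at 0.5, 0 with a filter of 5 FPKM, and 1 to 2 with a library left out. The filter of 5 FPKM and the summing of copies leave H2-Q6, H2-T10 and H2-T22 untested, and a fit of only the libraries compared gives no interaction.

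With the replicate block, 10512 genes were called in EpCAM+ against EpCAM- of monoculture (10554 without it), 10437 in coculture (10473), 5998 in EpCAM+ by culture (6170), 7448 in EpCAM- by culture (7527) and 7720 in the interaction (7826). H2-T10 then passed in coculture (0.31, adjusted p = 0.00812, limma), between the cultures of EpCAM+ (-0.25, adjusted p = 0.0377) and in the interaction (-0.31, adjusted p = 0.0487). In each, 5 of the 6 tested genes in place of 4 were called, among them H2-Q6, whose call the limit for testing fixed. Of all 12012 tested genes, 10437, 5998 and 7720 were called there, so the member counts alone say little. The block changed no other call of the 7. The depth is unknown, and values below 1 FPKM, such as those of H2-Q7, carry an error that 2 libraries do not fix.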
